A study of Mus musculus with 12 samples.

Results

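The 10 genes described here encode enzymes that carry glucose 6-phosphate down glycolysis. They are Gpi1, Pfkl, Pfkm, Pfkp, Aldoa, Tpi1, Pgk1, Pgam1, Eno1 and Eno2, taken from the count table by name, and they are 10 of 34820 genes listed. All 10 had enough counts to be tested, among 20180 genes that had. Bulk RNA-seq was run on islets of Langerhans taken from C57/Bl6 mice. All animals carried a tamoxifen-inducible Cre recombinase (Cre-ERT2) driven by the Ins1 promoter, and all were injected with tamoxifen as adults. Wild-type islets (3 libraries) came from animals with intact Taf4, and their labels give no time after tamoxifen. Taf4 mutant islets came from animals whose floxed Taf4 alleles were deleted in beta cells, at 1 week (3 libraries), 3 weeks (3 libraries) and 5 weeks (2 libraries, replicates 2 and 3) after tamoxifen. Each library pooled the islets of a pair of animals, and so also held islet cells that this Cre driver does not target. Taf4 is a subunit of TFIID, the factor that binds core promoters and recruits RNA polymerase II.

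In glycolysis, glucose 6-phosphate is isomerised by Gpi1 and phosphorylated a further time by phosphofructokinase, the committed and most tightly controlled step. Aldolase splits the product into a pair of triose phosphates that Tpi1 interconverts, and the lower enzymes Pgk1, Pgam1 and enolase lead on to pyruvate while ATP and NADH are gained. Beta cells use this flux as their glucose sensor: pyruvate feeds the mitochondria, ATP rises and insulin is released. Neurons and endocrine cells are known for Eno2, the gamma enolase used as a neuroendocrine marker, whereas Eno1, the alpha enolase, is found in most tissues.

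Libraries held 13865518 to 21581153 counts. Values are given as CPM, counts relative to library size after TMM scaling (a trimmed mean of gene ratios that corrects for RNA composition), and log2 fold changes carry ± SE from an edgeR model over all 20180 genes. A gene was said to rise or fall at an adjusted p below 0.05. The whole-gene count of Taf4, listed as Taf4a, ranged over 22.9 to 29.8 CPM in wild-type and 21.7 to 37.0 CPM in mutant libraries, but it mixes floxed with other exons and so does not check the deletion. Xist held 122 to 389 counts in wild-type libraries and 24615 to 69939 in mutant libraries, so sex-linked transcripts moved with genotype and the effects of sex and genotype cannot be told apart. Beta cell markers took 9 to 16.3% of wild-type, 14.1 to 21% of 1-week, 16.8 to 19.4% of 3-week and 4.87 to 9.63% of 5-week counts. Alpha cell markers took 2.24 to 4.12, 15.8 to 17.8, 10.7 to 12.5 and 9.24 to 12.7% in the same order. The beta sums did not stand for each marker. Of the 10 beta markers, 1 rose and 5 fell at 1 week and again at 3 weeks, and 0 rose and 6 fell at 5 weeks. Over all genes 5.34, 8.24 and 15% rose and 4.42, 7.76 and 14.1% fell at these times. In CPM the alpha sums at 5 weeks (58330 to 88750) overlapped the wild type (30920 to 67160). The sums at 1 week (179800 to 205600) and 3 weeks (86740 to 108400) lay above it. Of 6 tested alpha markers, 5 rose at 1 week, 2 at 3 weeks and 1 at 5 weeks, and 0 fell. Markers of acinar cells, the exocrine cells around the islets, took 25.4 to 46.1% of counts of wild-type, 6.29 to 21.6% of 1-week, 3.02 to 4.25% of 3-week and 0.0323 to 0.214% of 5-week libraries. The Ptf1a marker was at 0 in 1 library and Amy2a5 in 3. In bulk islets, fewer cells of a type and less RNA per cell cannot be told apart.

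Aldoa was the most abundant of the 10 transcripts. Per kilobase of exon its wild-type level was 40.1 ± 3.69 CPM (SD, n = 3), above every library of every other enzyme. Gpi1 followed at 8.73 ± 0.46, then Pfkm at 7.39 ± 1.54, Tpi1 at 6.58 ± 1.56, Eno2 at 5.40 ± 0.93, Pfkl at 4.19 ± 0.90 and Eno1 at 3.42 ± 0.35 CPM per kilobase (SD, n = 3). Within this run, from Gpi1 to Eno1, the libraries of each gene overlapped those of the next, so the order of neighbours was not resolved. Pfkp at 2.16 ± 0.037 and Pgk1 at 2.00 ± 0.30 CPM per kilobase (SD, n = 3) overlapped each other below Eno1. Pgam1 was lowest, at 0.45 ± 0.18 CPM per kilobase (SD, n = 3).

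The counts kept only reads that aligned to a single place, and the enzymes differ widely in how much of their exon sequence allows that. In the genome build of the files (NCBIM37, also called mm9), 7.46% of the 40-base words of Pgam1 exons and 29.3% of those of Pgk1 occurred once. The study discarded reads shorter than 40 bases, and a longer read can be unique where a 40-base word is not. The sequence open to counting can therefore be longer than these shares give. Eno1 reached 76.5%, Tpi1 77.9%, Gpi1 86.8% and Aldoa 87.3%, and Pfkl, Pfkm, Pfkp and Eno2 stood at 99% or above. Per kilobase of such unique words, an alternative chosen after the low counts were seen, wild-type Pgk1 stood at 8.43 ± 1.27 and Pgam1 at 6.61 ± 2.57 CPM (SD, n = 3). Words that cross an exon junction were not counted, so the unique length was below the exon length also for genes without repeated sequence, such as Pfkm. Pgk1 then lay above Eno2, at 5.95 ± 1.03 CPM per kilobase of unique words. The place of Pgk1 and Pgam1 in the order therefore depended on the length used, while Aldoa, at 54.4 ± 5.01, led on both scales. Other places depended on it too. Eno1 had 5379 bases over all its exons against 2027 in its longest transcript, where Pfkm had 3051 against 2880. The longest transcript as length would thus raise Eno1 relative to Pfkm. Exons also overlapped other genes in 16.5% of bases for Gpi1 (with Gm17327), 3.96% for Pfkp (with Pitrm1) and 1.54% for Tpi1 (with Spsb2).

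**Figure D1:**
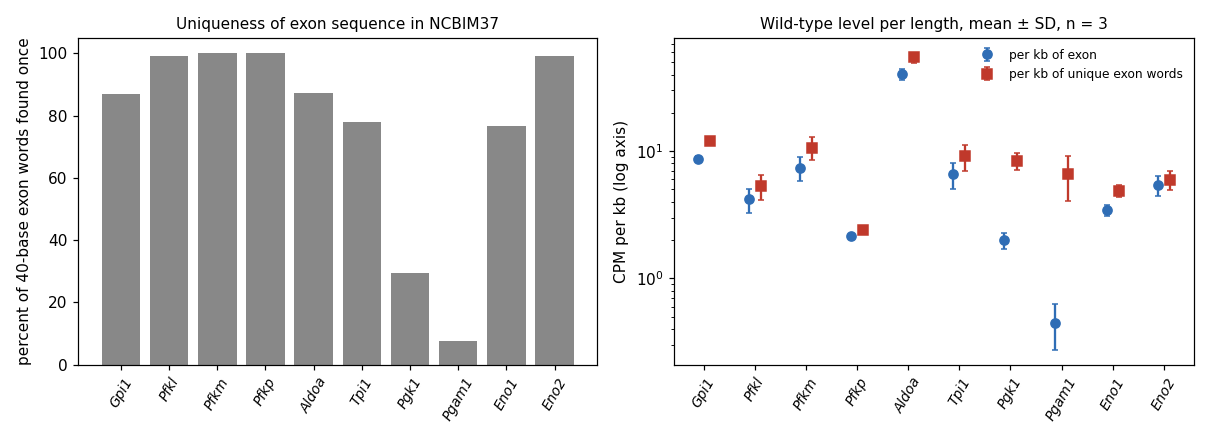
Left, the percent of 40-base exon words of each enzyme that occur once in NCBIM37. Right, the mean wild-type level in CPM per kilobase on a log axis, with SD over 3 libraries, per kilobase of exon (circles) and per kilobase of unique words (squares). Pgam1, with 7.46% unique words, moved from 0.45 to 6.61 CPM per kilobase, and Aldoa was highest on both scales.

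The comparisons ask how these transcripts changed with time after Taf4 inactivation. At 1 week, 1 of the 10 enzymes rose (Tpi1) and 0 fell, where 5.34% of all genes tested rose and 4.42% fell. At 3 weeks, 1 rose (again Tpi1) and 0 fell, beside 8.24% and 7.76% of all genes. At 5 weeks, 5 rose (Gpi1, Aldoa, Tpi1, Eno1 and Eno2) and 0 fell, beside 15% and 14.1% of all genes. The median log2 fold change of the 10 enzymes was 0.07 at 1 week, 0.14 at 3 weeks and 0.61 at 5 weeks, and the median over all genes tested was -0.04, -0.05 and -0.03. Together the 10 enzymes summed to 254 to 305 CPM in wild-type, 273 to 320 CPM in 1-week and 307 to 320 CPM in 3-week libraries. The 5-week sums were 476 and 537 CPM, above every earlier library. Markers of stromal cells fell in the same libraries for 8 of 9 genes, from 207.5 to 340.1 CPM in wild-type to 31.5 to 32.3 CPM in 5-week libraries, and their share of counts was lower too (0.0135 to 0.0228% against 0.00449 to 0.00512%). Of the endothelial markers 5 of 7 fell, and of the macrophage markers 5 of 8 fell and 1 rose. The summed shares of both lists at 5 weeks, 0.0191 to 0.025% and 0.00543 to 0.00588%, lay within the wild-type range. The part of these markers in the enzyme results was not tested.

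The 5-week counts depended on what the libraries were scaled or adjusted to. With the log2 acinar share as a covariate, 0 of the 10 enzymes were called by edgeR at 5 weeks (3 had an unadjusted p below 0.05), and 195 genes in place of 5863 were called over the whole table. The calls were lost with wider errors and, for 3 of the 5 enzymes, at larger differences: Tpi1 stood at 2.08 ± 0.71, Eno1 at 2.05 ± 0.65 and Aldoa at 1.54 ± 0.59 on the log2 scale (edgeR adjusted p = 0.144, 0.123 and 0.191). Gpi1 stood at 0.49 ± 0.59 and Eno2 at 0.47 ± 0.73 (edgeR adjusted p = 0.739 and 0.808). The 5-week acinar shares lay below those of all other libraries, so the acinar share and the 5-week group cannot be told apart by that model. With library totals alone, all 10 enzymes rose at 5 weeks and 7 rose at 3 weeks, on a scale that moved the median of all genes by 0.99 and 0.66 (log2). Under that scaling 91.8% of the 10857 genes called at 5 weeks were higher, where TMM gave 51.6% of 5863.

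**Figure D2:**
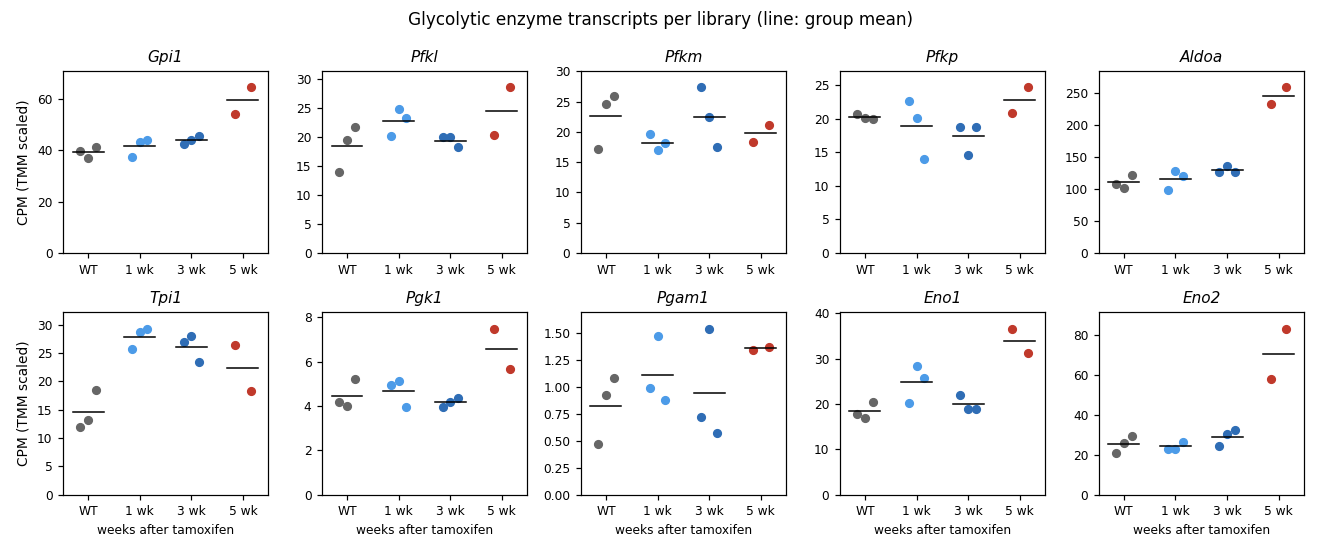
Level of each enzyme in CPM (vertical axes, each from 0) in every library, by group along the horizontal axis: wild type (grey), then 1, 3 and 5 weeks after tamoxifen. Points are libraries and lines are group means. Both 5-week libraries of Gpi1, Aldoa, Eno1 and Eno2 stand above all others, and the 1-week and 3-week libraries of Tpi1 stand above the wild type.

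Gpi1 (ENSMUSG00000036427, chromosome 7 from 34987141 to 35015308, minus strand, NCBIM37) interconverts glucose 6-phosphate and fructose 6-phosphate. Wild-type libraries held 39.7, 37.0 and 41.1 CPM, 1-week libraries 37.4, 43.1 and 43.9, 3-week libraries 42.3, 43.9 and 45.6, and 5-week libraries 54.1 and 64.4. Both 5-week libraries were above all 9 others. The log2 fold change was 0.60 ± 0.15 at 5 weeks (edgeR adjusted p = 0.00513), after 0.08 ± 0.13 at 1 week and 0.16 ± 0.13 at 3 weeks (edgeR adjusted p = 0.759 and 0.444).

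The phosphofructokinase genes gave no call in any of the 6 comparisons under TMM. Pfkl, the liver-type subunit, held 14.0, 19.5 and 21.7 CPM in wild-type libraries against 20.3 and 28.6 in 5-week libraries, and the groups overlapped. Its 5-week log2 fold change was 0.41 ± 0.20 (edgeR adjusted p = 0.128). Leaving out 5-week replicate 3 or 2 moved this to 0.15 or 0.65, and the latter passed (edgeR adjusted p = 0.667 and 0.0460). It also passed without the filter on low counts, at 0.55 (edgeR adjusted p = 0.0395), and with size factors from pan-endocrine genes, at 0.96 (edgeR adjusted p = 0.000386). Pfkm, the muscle-type subunit known for its part in oscillating glycolysis of beta cells, held 17.2, 24.6 and 25.9 CPM in wild-type libraries. The 1-week libraries held 19.6, 16.9 and 18.1 CPM, 3-week libraries 27.4, 22.5 and 17.5, and 5-week libraries 18.4 and 21.2, so every mutant group overlapped the wild type. Its log2 fold change was -0.31 ± 0.19 at 1 week, -0.01 ± 0.19 at 3 weeks and -0.19 ± 0.21 at 5 weeks (edgeR adjusted p = 0.318, 0.989 and 0.517). With library totals alone the 5-week value was 0.78 and passed (edgeR adjusted p = 0.0181). Pfkp, the platelet-type subunit, had the smallest relative spread of the 10 in wild-type libraries, at 20.64, 20.13 and 19.99 CPM. The 1-week libraries ranged from 13.9 to 22.6 CPM, 3-week libraries from 14.5 to 18.8, and 5-week libraries held 20.8 and 24.6. The 5-week difference of Pfkp under TMM was 0.17 with a 95% interval from -0.25 to 0.58. It passed at 0.69 with pan-endocrine size factors and at 1.16 with library totals (edgeR adjusted p = 0.0110 and 0.000387). These scalings moved the median of all genes by 0.53 and 0.99 (log2). With the acinar covariate Pfkp was at -0.95 (edgeR adjusted p = 0.576). The interval does not include this spread between settings.

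The makeup of phosphofructokinase transcripts was also read within each library, where scaling plays no part. Wild-type libraries had Pfkm to Pfkl count ratios of 1.23, 1.26 and 1.19, and 1-week libraries 0.973, 0.684 and 0.776. The ratio was 1.37, 1.12 and 0.963 for 3-week and 0.905 and 0.741 for 5-week libraries. All 1-week and 5-week libraries lay below all wild-type libraries, and the 3-week libraries overlapped them. Per kilobase of exon, Pfkm made up 53.6 ± 2.15% of the 3 transcripts in the wild type (SD, n = 3), 45.4 ± 3.28% at 1 week (SD, n = 3), 53.6 ± 4.82% at 3 weeks (SD, n = 3) and 45.0 ± 2.57% at 5 weeks (SD, n = 2). These ratios are descriptions and were given no test.

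Aldoa (ENSMUSG00000030695, chromosome 7 from 133938748 to 133944265, minus strand, NCBIM37) encodes aldolase A, which cleaves fructose 1,6-bisphosphate. Wild-type libraries held 108, 102 and 122 CPM, 1-week libraries 97.9, 128 and 120, and 3-week libraries 127, 136 and 127. The 5-week libraries held 233 and 259 CPM, above all earlier libraries, of which the highest held 136. The log2 fold change from wild type was 0.06 ± 0.14 at 1 week, 0.23 ± 0.14 at 3 weeks and 1.15 ± 0.15 at 5 weeks (edgeR adjusted p = 0.827, 0.272 and 1.75e-05). The 5-week value corresponds to a 2.23-fold rise.

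Tpi1 (ENSMUSG00000023456, chromosome 6 from 124760604 to 124764314, minus strand, NCBIM37) interconverts the triose phosphates and followed another course. Wild-type libraries held 12.0, 13.2 and 18.5 CPM, 1-week libraries 25.7, 28.7 and 29.2, 3-week libraries 26.9, 28.0 and 23.4, and 5-week libraries 26.4 and 18.3. The 1-week and 3-week libraries were all above the wild type, and at 5 weeks replicate 3 fell within it. The log2 fold change was 0.94 ± 0.19 at 1 week, 0.84 ± 0.18 at 3 weeks and 0.62 ± 0.20 at 5 weeks (edgeR adjusted p = 0.00407, 0.00399 and 0.0268). The 5-week call was lost without wild-type replicate 1, wild-type replicate 2 or 5-week replicate 2 (edgeR adjusted p = 0.107, 0.0889 and 0.300), the last giving 0.35 on the log2 scale. It was also lost when only the compared groups entered the model, with the difference at 0.63 (edgeR adjusted p = 0.0593).

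Pgk1, the X-linked phosphoglycerate kinase that makes the earliest ATP of the pathway, held 45 to 58 counts in wild-type libraries. These were 4.20, 3.98 and 5.25 CPM against 7.48 and 5.69 in 5-week libraries, which did not overlap. Its log2 fold change of 0.56 ± 0.27 did not pass (edgeR adjusted p = 0.131). Pgam1, the phosphoglycerate mutase, held only 5 to 13 counts in wild-type libraries and 34 and 47 at 5 weeks. Its 5-week log2 fold change was 0.71 with a 95% interval from -0.51 to 1.93, so neither no change nor a rise as large as that of Eno2 could be told from it at this depth.

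Eno1 (ENSMUSG00000063524, chromosome 4 from 149610830 to 149622988, plus strand, NCBIM37) held 17.8, 16.9 and 20.5 CPM in wild-type libraries and 20.2, 28.4 and 25.7 in 1-week libraries. The 3-week libraries held 21.9, 18.8 and 19.0 CPM, and 5-week libraries 36.5 and 31.2. The 5-week libraries were above all others, while both earlier groups overlapped the wild type. The log2 fold change was 0.43 ± 0.16 at 1 week, 0.11 ± 0.16 at 3 weeks and 0.88 ± 0.18 at 5 weeks (edgeR adjusted p = 0.107, 0.681 and 0.00114). Without 1-week replicate 1 the 1-week value was 0.59 and passed (edgeR adjusted p = 0.0427).

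Eno2 (ENSMUSG00000004267, chromosome 6 from 124710071 to 124719691, minus strand, NCBIM37) showed the largest 5-week difference of the 10 enzymes. Wild-type libraries held 20.8, 25.8 and 29.6 CPM, 1-week libraries 23.1, 23.1 and 26.7, 3-week libraries 24.4, 30.7 and 32.3, and 5-week libraries 58.0 and 83.2. Earlier groups overlapped the wild type and both 5-week libraries stood apart. The log2 fold change was -0.07 ± 0.18 at 1 week, 0.20 ± 0.17 at 3 weeks and 1.47 ± 0.19 at 5 weeks (edgeR adjusted p = 0.852, 0.484 and 1.39e-05), and the last is a 2.78-fold rise. Summed markers of Schwann cells and neurons, which also use Eno2, spanned 21.3 to 32.4 CPM over wild-type and 17.3 to 17.8 CPM over 5-week libraries. As a share of counts the order turned, with 0.00139 to 0.00237% in the wild type and 0.00254 to 0.00273% at 5 weeks. The 12 pan-endocrine markers summed to 8667 to 11020 CPM in wild-type and 6870 to 6909 CPM in 5-week libraries, but their shares of counts overlapped (0.565 to 1.05% and 0.985 to 1.09%). The part of either list in the Eno2 result was not tested.

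**Figure D3:**
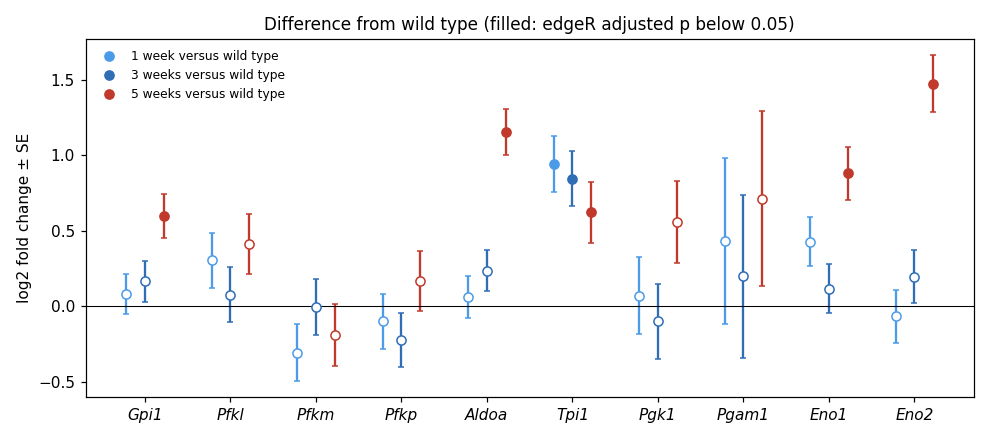
Log2 fold change from wild type (vertical axis, points, with SE as bars) for each enzyme at 1, 3 and 5 weeks. Filled points passed an edgeR adjusted p below 0.05. Tpi1 passed at all 3 times, and Eno2 reached 1.47 and Aldoa 1.15 at 5 weeks only.

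Within a library, Eno2 to Eno1 counts stood in ratios of 1.17, 1.53 and 1.44 for wild-type libraries. The 1-week ratios were 1.144, 0.815 and 1.04, all below the wild type, and the 3-week ratios 1.11, 1.63 and 1.70 overlapped it. The 5-week ratios were 1.59 and 2.67, both above the wild type, but replicate 2 lay within the 3-week range. These ratios were given no test.

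**Figure D4:**
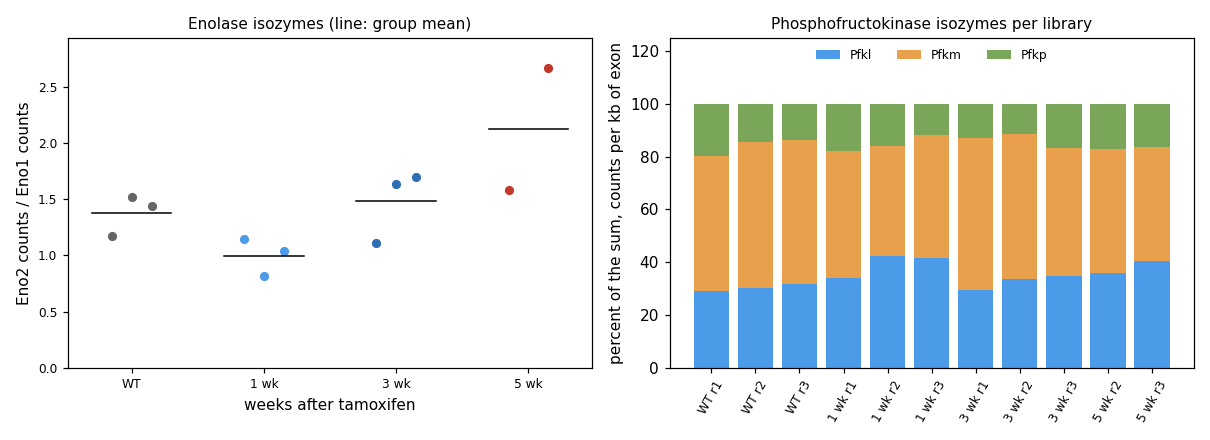
Left, the ratio of Eno2 to Eno1 counts in each library (points) with group means (lines), from wild type to 5 weeks. Right, the percent that Pfkl, Pfkm and Pfkp each took of their sum in counts per kilobase of exon, 1 bar a library. The 1-week enolase ratios, 0.815 to 1.144, lie below the wild type, and Pfkm takes 53.6% on average in the wild type and 45.0% at 5 weeks. With the longest transcript as length these Pfkm shares are 45.5% and 37.7% (not drawn).

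Comparisons among the mutant times asked when the differences appeared. Between 1 and 3 weeks, 0 of the 10 enzymes were called by edgeR in either direction, beside 3.82% of all genes, and DESeq2 also called 0. An unadjusted p below 0.05 was reached by 0 of them, and the lowest edgeR value was 0.0662, for Eno1. From 1 to 5 weeks 3 enzymes rose (Gpi1, Aldoa and Eno2), beside 7.68% of all genes, and from 3 to 5 weeks 3 rose (Aldoa, Eno1 and Eno2), beside 6.07%. Eno2 rose by 1.54 ± 0.19 over 1 week and by 1.28 ± 0.19 over 3 weeks (edgeR adjusted p = 1.42e-05 and 0.000121). Aldoa rose by 1.09 ± 0.15 and 0.92 ± 0.15 in the same comparisons (edgeR adjusted p = 5.01e-05 and 0.000422). Eno1 rose by 0.76 ± 0.17 over 3 weeks (edgeR adjusted p = 0.00677), a call lost without 5-week replicate 2 (edgeR adjusted p = 0.0622). Gpi1 rose by 0.52 ± 0.15 over 1 week (edgeR adjusted p = 0.0203), a call lost without 1-week replicate 1 or 5-week replicate 3 (edgeR adjusted p = 0.0974 and 0.138). With only the compared groups in the model Gpi1 stood at 0.50 and did not pass (edgeR adjusted p = 0.123). Tpi1 was -0.32 ± 0.20 at 5 weeks against 1 week (edgeR adjusted p = 0.309). The acinar covariate left 0 edgeR calls in both comparisons with 5 weeks, with 2 enzymes at an unadjusted p below 0.05 in each. With no timed wild type, time after deletion and age cannot be told apart.

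**Figure D5:**
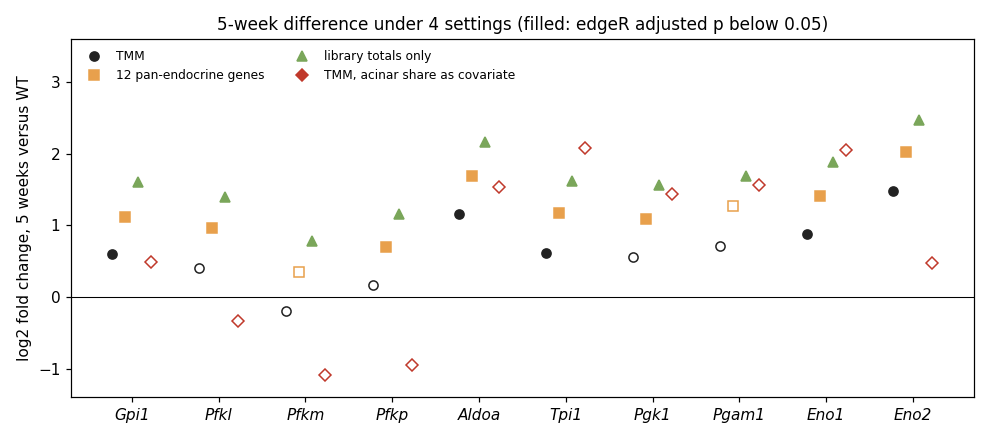
Log2 fold change at 5 weeks against wild type (vertical axis) for each enzyme under TMM (circles), size factors from 12 pan-endocrine genes (squares), library totals (triangles) and TMM with the acinar share as covariate (diamonds). Filled symbols passed an edgeR adjusted p below 0.05: 5 under TMM, 8 with pan-endocrine genes, 10 with totals and 0 with the covariate. Over all genes tested, the same settings called 5863, 9075, 10857 and 195.

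Across the 11 libraries, the log2 levels of Gpi1 and Aldoa had r = 0.97, Aldoa and Eno2 r = 0.95 and Gpi1 and Eno2 r = 0.94, as descriptions over libraries that share their groups. The lowest value was r = -0.43, for Pfkp and Tpi1. Of 8223 genes searched, those with profiles most like the mean of the 10 enzymes were Eif1 (r = 0.97), Psmc4 (0.96), Fastk (0.96), Tmem43 (0.96) and Psmc5 (0.95) over the 11 libraries.

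Promoter sequences (RefSeq, build GRCm38.p6, from 250 bases before to 50 after the start in the gene's direction) are printed for 3 of the enzymes that rose at 5 weeks and have a single listed start. Capitals mark matches, on either strand, to the core promoter letters and E-box letters searched in 17 windows of the 10 enzymes.
Eno2, chr6:124769624-124769923, minus strand: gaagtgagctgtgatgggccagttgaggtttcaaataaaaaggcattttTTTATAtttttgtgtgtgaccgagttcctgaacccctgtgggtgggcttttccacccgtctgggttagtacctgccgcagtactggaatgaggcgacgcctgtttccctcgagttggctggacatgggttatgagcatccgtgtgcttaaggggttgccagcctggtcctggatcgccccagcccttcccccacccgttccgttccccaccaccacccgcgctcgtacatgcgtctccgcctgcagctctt
Gpi1, chr7:34230287-34230586, minus strand: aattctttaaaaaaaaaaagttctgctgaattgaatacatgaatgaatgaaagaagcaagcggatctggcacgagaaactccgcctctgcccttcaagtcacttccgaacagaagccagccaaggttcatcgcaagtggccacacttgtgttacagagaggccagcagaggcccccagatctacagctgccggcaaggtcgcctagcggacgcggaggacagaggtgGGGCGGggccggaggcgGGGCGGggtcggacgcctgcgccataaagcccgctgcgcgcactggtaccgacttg
Tpi1, chr6:124814109-124814408, minus strand: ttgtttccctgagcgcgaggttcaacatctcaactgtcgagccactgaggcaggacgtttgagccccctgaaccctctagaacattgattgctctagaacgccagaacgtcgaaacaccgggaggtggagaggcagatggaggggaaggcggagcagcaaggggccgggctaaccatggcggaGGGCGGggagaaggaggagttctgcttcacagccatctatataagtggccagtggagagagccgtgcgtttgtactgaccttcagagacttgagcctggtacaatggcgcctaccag

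TATAAA was found for 1 of the 10 enzymes (Eno2, on the opposite strand as TTTATA) and in 13.6% of all 32851 windows of the same length. The Eno2 match lies in the upstream part of the window, away from the start. Only exact letters were searched, so related forms such as TATATAAG, shortly before the Tpi1 start, were not marked. A match or its absence therefore does not show whether a promoter has a TATA box. GGGCGG, the GC box letters, was found for 8 of 10 (not Pfkm or Eno2) and in 35.7% of windows. The E-box letters CACGTG were found for 1 (Pfkm, 7.15% of windows). The shorter ACGTG, which lies within the E-box, was found for 4 (Pfkm, Aldoa, Pgk1 and Pgam1) and in 19.6% of windows. A gene with several starts had several chances of a match.

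The steps around these enzymes are given from lists of the same pathway. Of 10 tested genes for other isozymes and steps, edgeR called 0 at 1 week and 0 at 5 weeks, and 1 rose at 3 weeks. Among all genes 5.34, 8.24 and 15% were higher and 4.42, 7.76 and 14.1% lower at 1, 3 and 5 weeks. The share of the list that rose at 3 weeks was near the background. DESeq2 also called 0 at 1 and 5 weeks, and at 3 weeks it called 1 higher and 1 lower. At 1 week and at 5 weeks, 3 genes had an unadjusted edgeR p below 0.05. Pkm2, the pyruvate kinase that ends the pathway, was the gene that rose, by 0.50 ± 0.14 at 3 weeks (edgeR adjusted p = 0.0189). Gapdh, the step between Tpi1 and Pgk1 and named after its value was seen, was 0.81 ± 0.33 at 5 weeks (edgeR adjusted p = 0.0746), with 48.4% of its exon words unique.

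Upstream, of 7 genes of glucose entry, 0 rose and 1 fell at 1 week, 0 rose and 3 fell at 3 weeks, and 1 rose and 3 fell at 5 weeks. Over all genes 4.42, 7.76 and 14.1% fell at these times, and 15% rose at 5 weeks. The share of the list that rose at 5 weeks was near the background. Slc2a2, the main glucose transporter of mouse beta cells, was at -4.73 ± 0.38, -5.53 ± 0.40 and -6.26 ± 0.50 at 1, 3 and 5 weeks (edgeR adjusted p = 4.1e-07, 6.01e-08 and 6.89e-08). G6pc2, the beta cell phosphatase that reverses glucose phosphorylation, was at -3.09 ± 0.26 at 5 weeks, and Hk2, a hexokinase, at -1.99 ± 0.43 (edgeR adjusted p = 1.25e-07 and 0.00201). At 3 weeks G6pc2 was at -1.01 ± 0.21 and Hk2 at -1.50 ± 0.37 (edgeR adjusted p = 0.00288 and 0.00932). Slc2a1, another glucose transporter, rose by 0.78 ± 0.24 (edgeR adjusted p = 0.0192). Of 7 genes that control fructose 2,6-bisphosphate or reverse phosphofructokinase, 1 rose and 1 fell at each time, beside 5.34, 8.24 and 15% of all genes higher and 4.42, 7.76 and 14.1% lower. At 5 weeks both shares of this list were near the background. Fbp1, the fructose bisphosphatase opposing phosphofructokinase, rose by 1.92 ± 0.23, 1.15 ± 0.23 and 3.23 ± 0.24 at 1, 3 and 5 weeks (edgeR adjusted p = 7.69e-05, 0.00246 and 3.76e-08). Fbp2, the muscle-type fructose bisphosphatase, was the gene called lower at 3 weeks, at -3.31 ± 0.72 (edgeR adjusted p = 0.00383). Pfkfb2, which makes and degrades fructose 2,6-bisphosphate, fell by 0.89 ± 0.16 at 1 week and 0.57 ± 0.17 at 5 weeks (edgeR adjusted p = 0.00175 and 0.0193).

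Downstream, of 14 genes of pyruvate fate, 1 rose and 0 fell at 1 week, 2 rose and 3 fell at 3 weeks, and 4 rose and 2 fell at 5 weeks. Over all genes 5.34, 8.24 and 15% rose and 4.42, 7.76 and 14.1% fell at 1, 3 and 5 weeks. The share of the list that rose at 1 week and the share that fell at 5 weeks were near the background. The kinases that inactivate pyruvate dehydrogenase went both ways. Pdk4 rose by 1.64 ± 0.21, 1.08 ± 0.21 and 1.62 ± 0.22 at 1, 3 and 5 weeks (edgeR adjusted p = 0.000111, 0.00151 and 3.23e-05), while Pdk2 fell by 0.61 ± 0.19 at 3 weeks and 1.38 ± 0.22 at 5 weeks (edgeR adjusted p = 0.0321 and 0.000134). Pdk1 fell by 0.57 ± 0.15 at 3 weeks (edgeR adjusted p = 0.0162). Dlat, a subunit of the complex, rose by 0.84 ± 0.14 at 3 weeks and 0.93 ± 0.15 at 5 weeks (edgeR adjusted p = 0.000348 and 0.000139). Ldha, the lactate dehydrogenase subunit normally low in beta cells, was at -2.04 ± 0.36 at 3 weeks and -2.70 ± 0.43 at 5 weeks (edgeR adjusted p = 0.000741 and 0.000132). Wild-type libraries held 19.15, 10.17 and 22.61 CPM of Ldha at acinar shares of 46.1, 25.4 and 42.6%. The 1-week libraries held 6.236, 18.55 and 10.54 CPM at shares of 6.29, 21.6 and 16.4%. The part of acinar cells in the Ldha result was not tested.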

How the data were processed

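The members and gene lists were chosen with earlier results of these data known. Per the labels and the study's methods, total RNA of islet pools was amplified linearly, and reads were processed with bcl2fastq 2.17.1.14, cutadapt 1.10, Bowtie2 2.2.8 (removal of ribosomal reads), STAR 2.5.3a on mm9 and HTSeq, which counted unique, unambiguous reads per gene. Strand use in counting was not given in the sources used here. The deposited counts are whole numbers per gene. Per-length signals (normalised counts over the median transcript length) and log2 fold changes with p-values from the authors' own DESeq2 comparisons were also deposited by the authors and were not used. Replicate 1 at 5 weeks was not analysed here. A gene of the glucose entry list is not reported here and was left out of the counts of that list.

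Counts were analysed in R 4.3.3 with edgeR 4.0.16 (filterByExpr, TMM, quasi-likelihood F test, 1 model over 4 groups) and Benjamini-Hochberg adjustment over 20180 genes. The filter kept at least 99.8% of counts. The edgeR fit was also run on simulated counts with known changes. These held no shift in acinar share, so they cannot show how the fit behaves under the shift in these libraries. The alternatives were DESeq2 1.42.0, other scalings, no filter, a replicate block, an acinar covariate, the compared groups only, and leaving out each library. All 10 enzymes were named, and up to 4 called genes of each list at each time against wild type by smallest p. Genes said to be named after their value was seen, and Pdk2 at 3 weeks, were named in addition. Exon lengths came from GENCODE M1. P-values measure the spread between these pools. Amplified reads are not independent molecules.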

Additional observations from a re-analysis of the deposited data

Results flagged for a closer look

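Mutant islets differed between times under the same contrast for 4 enzymes, each by a direct edgeR test of the difference between mutant times. From 1 to 5 weeks the log2 differences were 0.52 for Gpi1, 1.09 for Aldoa and 1.54 for Eno2 (edgeR adjusted p = 0.0203, 5.01e-05 and 1.42e-05). From 3 to 5 weeks they were 0.92 for Aldoa, 0.76 for Eno1 and 1.28 for Eno2 (edgeR adjusted p = 0.000422, 0.00677 and 0.000121). Both 5-week libraries were above all libraries of the earlier time in each of these. The acinar marker share moved with time in the same libraries, and its part in these differences was not tested apart from the covariate model, which called none of them. Leaving out single libraries ended the Eno1 call (without 5-week replicate 2, 0.65, edgeR adjusted p = 0.0622) and the Gpi1 call (without 1-week replicate 1 or 5-week replicate 3, 0.43 and 0.39, edgeR adjusted p = 0.0974 and 0.138).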

How the results depend on the processing

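Relative log expression scaling kept the number of enzymes called in all 6 comparisons, and DESeq2 changed it in 1 (4 in place of 3 from 3 to 5 weeks). With library totals 7 enzymes were called at 3 weeks, 10 at 5 weeks, 2 from 1 to 3 weeks and 8 from 1 to 5 weeks. With pan-endocrine size factors 8 were called at 5 weeks, 8 from 1 to 5 weeks and 9 from 3 to 5 weeks. With the acinar covariate 2 were called at 1 week, 0 at 5 weeks, 0 from 1 to 5 weeks and 0 from 3 to 5 weeks. Asking also for a log2 fold change beyond 1 left 0 at 1 week, 0 at 3 weeks, 2 at 5 weeks and 1 from 3 to 5 weeks. Leaving out single libraries gave 1 to 2 calls at 1 week. It also changed the calls of Tpi1 and Pfkl at 5 weeks and of Gpi1 from 1 to 5 weeks. From 3 to 5 weeks it changed those of Gpi1 and Eno1. Smaller changes in the number called are not all listed here. The cause was not tested in any of these. Scaling moved the median log2 fold change of all genes at 1, 3 and 5 weeks by 0.19, 0.66 and 0.99 with totals and by -0.20, -0.21 and 0.53 with pan-endocrine genes. The higher share of called genes was 54.7, 51.5 and 51.6% with TMM, 71.7, 93.3 and 91.8% with totals, and 22.1, 18.3 and 82.9% with pan-endocrine genes. Over all genes tested, TMM called 5863 at 5 weeks, totals 10857 and pan-endocrine genes 9075. From 1 to 5 weeks these numbers were 3316, 9183 and 9741, and from 3 to 5 weeks 2376, 2539 and 9751. At 3 weeks they were 3229, 7690 and 2860, and from 1 to 3 weeks 770, 2361 and 697.

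Of the log2 fold changes under alternatives, 694 kept direction and call, 35 gained a call, 21 lost one and 60 changed sign. None of the 60 was called under TMM, but some passed in the new direction under the alternative. With totals these were Pfkm at 3 and at 5 weeks (edgeR adjusted p = 0.0477 and 0.0181). With pan-endocrine genes these were Pfkm and Tpi1 from 3 to 5 weeks (edgeR adjusted p = 0.0376 and 0.0417). The 35 gained calls do not include them. With totals, values against wild type became 0.10 (Pfkp) and 0.12 (Eno2) at 1 week, 0.64 (Pfkm), 0.43 (Pfkp) and 0.58 (Pgk1) at 3 weeks and 0.78 (Pfkm) at 5 weeks. From 1 to 3 weeks they became 0.26 (Pfkl), 0.33 (Pfkp), 0.39 (Tpi1), 0.30 (Pgk1), 0.27 (Pgam1) and 0.18 (Eno1), from 1 to 5 weeks 0.48 (Tpi1), and from 3 to 5 weeks 0.14 (Pfkm) and 0.089 (Tpi1). With pan-endocrine genes they became -0.13 (Gpi1), -0.14 (Aldoa) and -0.12 (Pgk1) at 1 week, and -0.049 (Gpi1), -0.11 (Pfkl), -0.088 (Eno1) and -0.00064 (Eno2) at 3 weeks. They became 0.36 (Pfkm) at 5 weeks, 0.41 (Tpi1) from 1 to 5 weeks, and 0.54 (Pfkm) and 0.51 (Tpi1) from 3 to 5 weeks. With the acinar covariate they became -0.21 (Pfkl), 0.25 (Pgk1) and -0.19 (Eno2) at 3 weeks, -0.33 (Pfkl) and -0.95 (Pfkp) at 5 weeks, and 0.23 (Tpi1) and 0.022 (Pgk1) from 1 to 3 weeks. They became -0.52 (Pfkl), -0.62 (Pfkm), -0.66 (Pfkp) and 0.89 (Tpi1) from 1 to 5 weeks, and -0.13 (Pfkl), -0.29 (Pfkp) and 0.66 (Tpi1) from 3 to 5 weeks. Pfkm at 3 weeks became 0.10 without the filter, 0.0088 with DESeq2 and 0.0053 with the compared groups only, and Pgk1 at 3 weeks 0.0049 without the filter. Leaving out single libraries spanned zero for Pfkp (-0.21 to 0.10) and Eno2 (-0.16 to 0.087) at 1 week, and for Pfkl (-0.071 to 0.23), Pfkm (-0.18 to 0.14), Pgk1 (-0.18 to 0.043) and Pgam1 (-0.35 to 0.44) at 3 weeks. It did so for Gpi1 (-0.0066 to 0.12), Pfkp (-0.30 to 0.0065) and Pgam1 (-0.78 to 0.013) from 1 to 3 weeks, Pfkl (-0.16 to 0.33) from 1 to 5 weeks and Tpi1 (-0.51 to 0.020) from 3 to 5 weeks.

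Replicate numbers did not pair the libraries: 15 same-numbered pairs correlated at -0.12 to 0.19, with 1 above 0.1. With the replicate block, enzymes called were 1, 1 and 4 at 1, 3 and 5 weeks and 0, 2 and 3 in the mutant comparisons, and 4688 genes were called at 5 weeks. The calls lost with the block were Tpi1 at 5 weeks (0.57, edgeR adjusted p = 0.0731) and Gpi1 from 1 to 5 weeks (0.48, edgeR adjusted p = 0.0597). Depth limits Pgam1, with 5 to 47 counts a library, and Pgk1. The 5-week group has 2 libraries.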

Other observations

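Side branches of glycolysis are given by their counts. Of 7 pentose phosphate genes, 0 were called by edgeR or DESeq2 at 1 and 3 weeks (2 and 4 had an unadjusted edgeR p below 0.05). At 5 weeks 3 rose, 0 fell and 4 did not pass, beside 15% of all genes higher and 14.1% lower. G6pdx, the glucose 6-phosphate dehydrogenase that opens the branch, rose by 1.32 ± 0.18, and Pgd, the next NADPH-forming step, by 1.27 ± 0.20 (edgeR adjusted p = 3.44e-05 and 0.000104). Rpia, the ribose phosphate isomerase, rose by 0.65 ± 0.19 (edgeR adjusted p = 0.0143). Of 10 genes that shuttle NADH into mitochondria, 0 were called by edgeR or DESeq2 at 1 week (1 had an unadjusted edgeR p below 0.05). At 3 weeks 0 rose and 1 fell, beside 8.24% of all genes higher and 7.76% lower. At 5 weeks 5 rose, 1 fell and 4 did not pass, beside 15% higher and 14.1% lower. The share of the list that fell was near the background at both times. Got1, the cytosolic aspartate aminotransferase, rose by 1.94 ± 0.15, and Mdh2, the mitochondrial malate dehydrogenase, by 0.81 ± 0.16 (edgeR adjusted p = 5.86e-08 and 0.00103). Got2, the mitochondrial aspartate aminotransferase, rose by 0.83 ± 0.18 and Slc25a11, the oxoglutarate carrier, by 0.66 ± 0.16 (edgeR adjusted p = 0.00179 and 0.00387). Gpd1, the cytosolic glycerol 3-phosphate dehydrogenase, was the gene called lower at 3 weeks, at -0.67 ± 0.18 (edgeR adjusted p = 0.0169). At 5 weeks, where it was named after its value was seen, it fell by 0.64 ± 0.20 (edgeR adjusted p = 0.0253).

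Of 13 tested genes of hypoxia other than the 10 enzymes, 1 rose at 1 week, 2 at 3 weeks and 4 at 5 weeks, and 0 fell by edgeR or DESeq2, beside 5.34, 8.24 and 15% of all genes higher and 4.42, 7.76 and 14.1% lower. Ero1l, an oxidase of the endoplasmic reticulum, rose by 1.90 ± 0.15 and Ndrg1 by 1.03 ± 0.17 at 5 weeks (edgeR adjusted p = 8.3e-08 and 0.000173). Hif1a, the oxygen-regulated transcription factor subunit, rose by 0.48 ± 0.14 and Vegfa, an angiogenic growth factor, by 0.47 ± 0.16 at 5 weeks (edgeR adjusted p = 0.0163 and 0.0309). At 3 weeks Hif1a rose by 0.61 ± 0.13 and Ndrg1 by 0.52 ± 0.15 (edgeR adjusted p = 0.00332 and 0.0257). Higd1a, a mitochondrial protein, rose by 1.29 ± 0.26 at 1 week (edgeR adjusted p = 0.00525).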
